A study of Mus musculus with 12 samples.

Results

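The 10 genes described here take TGF-beta from its latent form to the Smad proteins of the nucleus: Tgfb1, Lrrc32, Itgb8, Itgav, Tgfbr1, Tgfbr2, Smad3, Smad7, Ski and Skil. They were picked by gene symbol as steps of the pathway. The rule uses no measured value, although the set was drawn up with earlier results of these data known. All 10 were found, each as 1 entry, among the 23352 gene symbols of every library, and all 10 passed the filter on low values that left 11431 genes for testing. Their levels were measured by RNA sequencing in regulatory T cells (Tregs), the T cells that restrain other immune cells, in 4 groups made of 2 genotypes and 2 sorted fractions.

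The mice were C57BL/6 females, and the cells were sorted from their spleen and lymph nodes. HET mice were Foxp3YFP-Cre/Foxp3WT;Ezh2fl/+ and kept a working allele of Ezh2, the methyltransferase of Polycomb repressive complex PRC2, while KO mice were Foxp3YFP-Cre/Foxp3WT;Ezh2fl/fl. Both genotypes therefore carry the Cre, which is expressed from the Foxp3 gene and so in Tregs. Foxp3 lies on the X chromosome and these females also carry a Foxp3WT allele, so Tregs that use that allele lack the Cre unless the sort removed them; the labels do not name a sort on YFP. Each genotype was divided by surface CD62L, the lymph node homing receptor that resting T cells display and activated T cells shed, into CD62Lhi and CD62Llo cells. The labels give no age and do not say whether the 3 libraries of a group are separate mice, pools or cultures, so the p-values measure the spread between these libraries only. HET CD62Lhi replicate 3, which the submitters set aside for low read counts, was left out, leaving 2 libraries in HET CD62Lhi and 3 in each of the other groups.

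TGF-beta is secreted bound to its own propeptide, which hides it from its receptors. On the Treg surface the latent complex is held by GARP, the product of Lrrc32, and the integrin αvβ8, made of the Itgav and Itgb8 products, pulls on it and frees the ligand. The ligand joins the type II receptor (Tgfbr2) to the type I receptor (Tgfbr1), which phosphorylates Smad2 and Smad3, and these move with Smad4 to the nucleus. Smad7 blocks the activated type I receptor and is itself a target of the signal, while Ski and SnoN, the product of Skil, bind Smads on DNA and hold transcription down. In Tregs the pathway is known for inducing Foxp3 outside the thymus and the gut and skin retention integrin CD103.

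Levels are given as FPKM, sequenced fragments scaled to transcript length and to the mapped total of the library. Between 10597 and 11024 genes reached 1 FPKM in each of the 11 libraries. The smallest steps between low FPKM values put the depths at 0.499 to 2.06 times that of HET CD62Llo replicate 1, and the absolute depth is not known. Pearson r of log2(FPKM + 1) across genes ran from 0.949 to 0.978 for libraries of the same group and from 0.925 to 0.966 for libraries of different groups. Foxp3 lay between 75.9 and 96.8 FPKM in every library. Ezh2 averaged 12.6 ± 0.144 (SD, n = 2) in HET CD62Lhi, 18.8 ± 1.48 (n = 3) in HET CD62Llo, 10.6 ± 1.24 (n = 3) in KO CD62Lhi and 14.6 ± 2.16 (n = 3) in KO CD62Llo. Neither genotype difference of Ezh2 passed the threshold (limma, Benjamini-Hochberg adjusted p = 1 and 0.113), and a whole-gene FPKM does not show which part of the gene a transcript lacks.

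Markers of other cell types also differed between the fractions. The summed FPKM of 8 B cell markers was 86.7 to 105 in HET CD62Lhi and 20.4 to 34.4 in HET CD62Llo, and 83.4 to 143 in KO CD62Lhi and 26 to 67.2 in KO CD62Llo. In both genotypes 6 of the 8 were called lower in CD62Llo. The 10 myeloid and dendritic cell markers found summed to 20.1 to 45.3 FPKM in HET CD62Lhi and 58.4 to 132 in HET CD62Llo, and to 20.9 to 30.9 in KO CD62Lhi and 39 to 307 in KO CD62Llo, with 1 of 5 tested, Lyz2, called higher in both genotypes. The highest were KO CD62Llo replicate 2 at 307, KO CD62Llo replicate 1 at 168 and HET CD62Llo replicate 1 at 132. The 6 CD8 T and NK cell markers summed to 34.5 to 50.9 in the CD62Lhi and 14.9 to 21.8 in the CD62Llo libraries of both genotypes, with 3 of 5 tested called lower and 1 higher in each. Platelet markers, of interest because platelets carry Tgfb1 and Lrrc32, summed to 1.17 to 1.96 FPKM in all 11 libraries, and Treml1 was listed at 0 in all 4 groups. Of 8 markers of stroma and endothelium 7 were under 1 FPKM in every library, all but Pecam1, which T cells also express. The 3 red cell markers found summed to 2.97 to 227 FPKM with no order by group, and 0 of 2 tested were called. All 7 T cell and Treg markers were detected in every library, and 5 of them were called higher in CD62Llo in both genotypes. The part of these other cell types in the results below was not tested, except where a value is given beside the result.

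**Figure D1:**
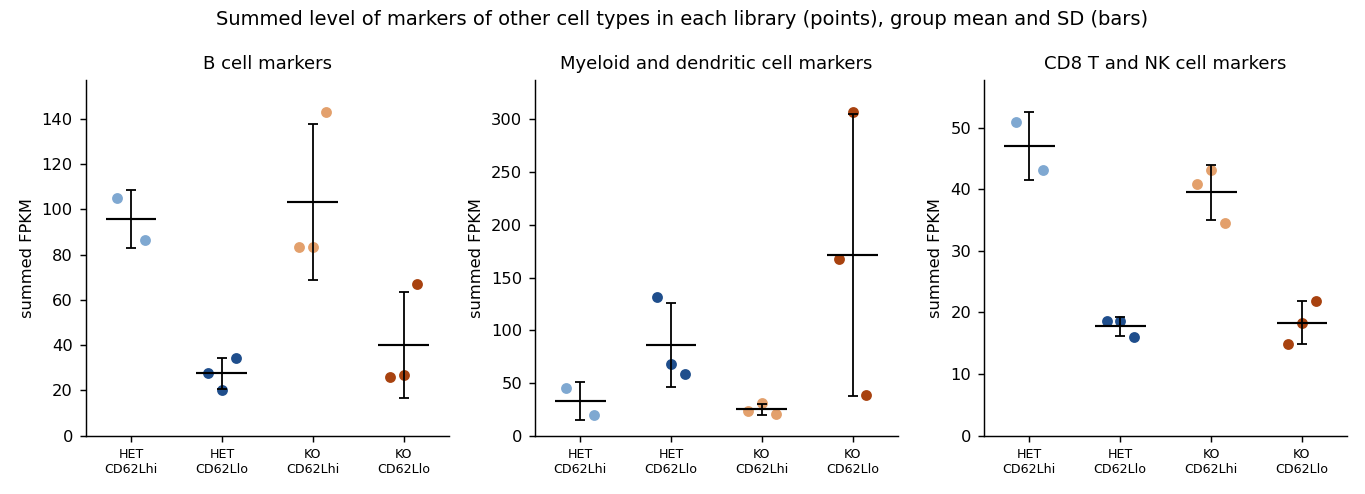
Summed FPKM of B cell, myeloid and dendritic cell, and CD8 T and NK cell markers in each of the 11 libraries (points), with group mean and SD (bars). B cell and CD8 T and NK cell sums are lower and myeloid sums mostly higher in CD62Llo than in CD62Lhi, and KO CD62Llo replicate 2 reaches 307 in the myeloid panel.

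The upstream sequences of the integrin pair and of the receptor pair are shown because the results below turn on them: both integrin genes and Tgfbr1 rose in CD62Llo cells while Tgfbr2 did not. Each line holds the 250 bases before the RefSeq start site nearest to the deposited 5′ end, on build GRCm38.p6 and read 5′ to 3′ on the strand of the gene. The windows are chr12:119238277-119238526 on the minus strand for Itgb8, chr2:83724147-83724396 on the plus strand for Itgav, chr4:47352972-47353221 on the plus strand for Tgfbr1 and chr9:116175364-116175613 on the minus strand for Tgfbr2. The RefSeq start of Tgfbr1 is 83 bases from the deposited end and the other 3 coincide with it. Capitals mark CAGAC, the core of the Smad-binding element, CCAAT, the CCAAT box, and GGGCGG, the GC box, searched on both strands.
Itgb8: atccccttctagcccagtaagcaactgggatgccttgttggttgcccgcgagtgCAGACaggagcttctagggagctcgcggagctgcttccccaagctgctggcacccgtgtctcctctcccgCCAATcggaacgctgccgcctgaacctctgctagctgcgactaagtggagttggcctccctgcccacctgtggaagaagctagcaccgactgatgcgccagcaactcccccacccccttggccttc
Itgav: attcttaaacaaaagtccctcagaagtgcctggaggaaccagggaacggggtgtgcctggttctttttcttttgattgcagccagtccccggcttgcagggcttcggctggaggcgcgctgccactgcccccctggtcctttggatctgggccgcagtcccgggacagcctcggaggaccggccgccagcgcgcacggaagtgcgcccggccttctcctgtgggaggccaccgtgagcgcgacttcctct
Tgfbr1: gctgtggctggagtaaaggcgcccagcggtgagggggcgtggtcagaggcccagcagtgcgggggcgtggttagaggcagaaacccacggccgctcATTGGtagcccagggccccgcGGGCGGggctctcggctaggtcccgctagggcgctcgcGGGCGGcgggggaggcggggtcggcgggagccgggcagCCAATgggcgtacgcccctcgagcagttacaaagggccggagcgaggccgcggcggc
Tgfbr2: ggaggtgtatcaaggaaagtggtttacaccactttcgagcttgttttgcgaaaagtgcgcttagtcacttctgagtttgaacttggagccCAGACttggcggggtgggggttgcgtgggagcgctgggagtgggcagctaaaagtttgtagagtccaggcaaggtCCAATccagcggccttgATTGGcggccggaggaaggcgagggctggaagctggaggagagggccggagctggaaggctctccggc
The Itgb8 window holds 1 CAGAC and 1 CCAAT, the Itgav window none of the 3 motifs, the Tgfbr1 window 2 CCAAT and 2 GGGCGG, and the Tgfbr2 window 1 CAGAC and 2 CCAAT. Among 32851 windows of this length in the RefSeq table, 42.2% hold CAGAC, 33.8% CCAAT and 32.7% GGGCGG on either strand, so the presence of any of them is common. The palindromic Smad-binding element GTCTAGAC (0.167% of windows), the AP-1 site TGACTCA (4.46%) and the cyclic AMP element TGACGTCA (1.55%) were found in none of the 7 matched members, which are these 4 with Tgfb1, Smad3 and Ski. Lrrc32, Smad7 and Skil had no entry. GC content was 62.4% for Itgb8, 64.4% for Itgav, 74.8% for Tgfbr1 and 58.4% for Tgfbr2, against a median of 52.4% over all windows. A match describes the letters and shows no binding.

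Between the fractions of HET cells, 3 of the 10 genes rose in CD62Llo (Itgb8, Itgav and Tgfbr1) and 3 fell (Tgfbr2, Smad7 and Ski). Of all 11431 tested genes 27.7% were called in this comparison, 18.8% higher and 8.88% lower (limma, Benjamini-Hochberg adjusted p under 0.05). Between the KO fractions 4 rose (Lrrc32, Itgb8, Itgav and Tgfbr1) and 1 fell (Smad7), where 16.2% of all genes were called, 11.9% higher and 4.26% lower. The values of the fractions did not overlap for 8 of the 10 genes in HET, against 53.9% of all genes, and for 7 of the 10 in KO, against 34.8%. The median log2 change of the 10 genes was -0.01 in HET and 0.02 in KO, and that of all tested genes 0.068 and 0.05. Changes are differences of log2(FPKM + 1) and are therefore smaller than the change in FPKM for genes at low levels. In bulk samples a different share of expressing cells and a different level per cell cannot be told apart. Quantile normalization moved the median change of all genes by -0.101 in HET and -0.073 in KO and median centring by -0.102 and -0.079. The share of calls that were higher then went from 67.9% to 46.6% and 45% in HET and from 73.7% to 54.5% and 50.5% in KO. No call of the 10 genes changed direction under either.

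**Figure D2:**
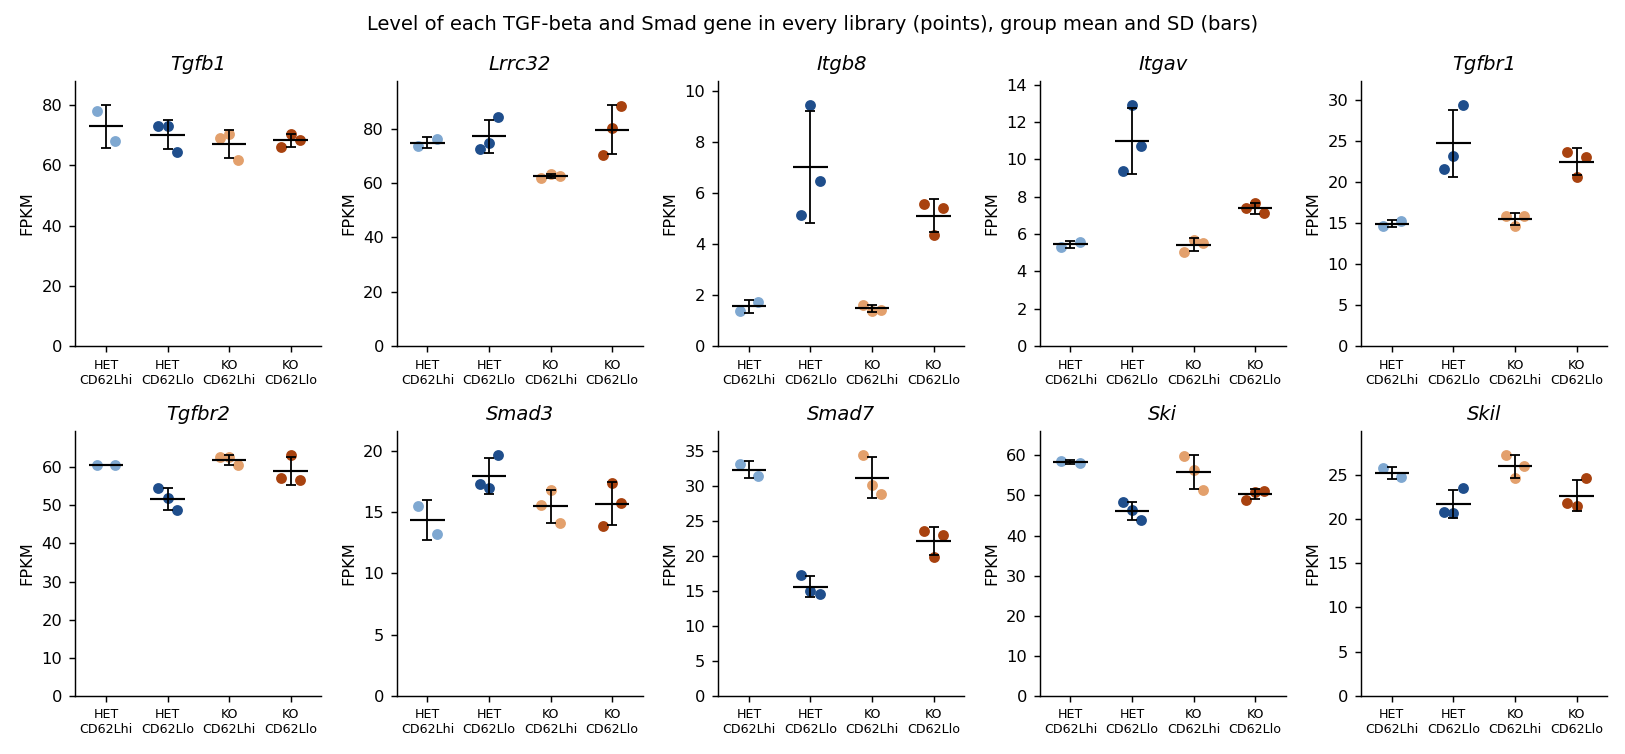
FPKM of each of the 10 genes in every library (points), with group mean and SD (bars), on linear axes that start at 0. Itgb8, Itgav and Tgfbr1 are higher and Smad7 lower in all CD62Llo libraries than in all CD62Lhi libraries of the same genotype, while Tgfb1 stays between 61.8 and 77.9 throughout.

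Tgfb1 (mm10, chr7:25687002-25704996, plus strand), the ligand gene, was among the most abundant of the 10 per length and differed little. It was at 77.9 and 67.9 FPKM in HET CD62Lhi, at 73, 73.1 and 64.5 in HET CD62Llo, at 69.1, 70.3 and 61.8 in KO CD62Lhi and at 66.2, 70.5 and 68.3 in KO CD62Llo. All 4 groups overlapped. The log2 change from CD62Lhi to CD62Llo was -0.05 in HET (95% interval -0.24 to 0.14, limma adjusted p = 0.679) and 0.03 in KO (-0.14 to 0.20, adjusted p = 0.848).

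Lrrc32 (chr7:98494222-98501830, plus strand), whose product GARP carries latent TGF-beta on the cell surface, rose between the KO fractions. It was at 61.9, 63.5 and 62.6 FPKM in KO CD62Lhi and at 70.3, 80.3 and 88.4 in KO CD62Llo, with no overlap. In HET it was at 73.5 and 76.4 in CD62Lhi and at 72.6, 74.9 and 84.2 in CD62Llo, which overlapped, so the KO CD62Lhi libraries were the lowest of the 4 groups. The log2 change was 0.33 in KO (SE 0.08, limma adjusted p = 0.0231) and 0.04 in HET (95% interval -0.17 to 0.25, adjusted p = 0.787). The KO call was lost without any 1 of KO CD62Lhi replicates 1 (adjusted p = 0.073), 2 (0.0622) and 3 (0.0628) or of KO CD62Llo replicates 2 (0.0735) and 3 (0.0556). It was also lost in a fit of the 2 groups alone (0.0532) and under median centring (0.069), and the adjusted p spanned 0.00768 to 0.0735 in the alternatives. The difference between the genotypes in this change was 0.30 (95% interval 0.02 to 0.57, interaction adjusted p = 0.633).

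Itgb8 (chr12:119162803-119238276, minus strand), which encodes the β8 subunit of the TGF-beta-freeing integrin, was the least abundant of the 10 per length and had the largest changes between fractions. It was at 1.38 and 1.72 FPKM in HET CD62Lhi and at 5.14, 9.43 and 6.46 in HET CD62Llo. It was at 1.62, 1.39 and 1.42 in KO CD62Lhi and at 5.56, 4.35 and 5.39 in KO CD62Llo. Every CD62Llo library was thus above every CD62Lhi library, by a ratio of group means of 4.52 in HET and 3.46 in KO. The log2 rise was 1.62 in HET (SE 0.19, limma adjusted p = 0.000284) and 1.30 in KO (SE 0.17, adjusted p = 0.00105). The call held in all 14 alternatives for HET (adjusted p 0.00017 to 0.0106) and all 15 for KO (0.000471 to 0.0171). Among the CD62Llo libraries, the one with the highest myeloid sum was at 5.14 FPKM of Itgb8 in HET and at 4.35 in KO, the lowest of its group each time; the part of myeloid cells in the rise was not tested. Without the 3 libraries highest in myeloid markers the rise was 1.79 in HET and 1.37 in KO.

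Itgav (chr2:83724397-83806916, plus strand), which encodes the αv subunit shared by several integrins, rose with its partner. It was at 5.32 and 5.56 FPKM in HET CD62Lhi and at 9.38, 12.9 and 10.7 in HET CD62Llo. It was at 5.04, 5.7 and 5.54 in KO CD62Lhi and at 7.37, 7.68 and 7.1 in KO CD62Llo. The fractions did not overlap in either genotype, and KO CD62Llo lay between both CD62Lhi groups and HET CD62Llo. The log2 rise was 0.89 in HET (SE 0.11, limma adjusted p = 0.000339), called in all 14 alternatives, and 0.38 in KO (SE 0.10, adjusted p = 0.025).
The KO call was lost without any 1 of KO CD62Lhi replicates 1 (adjusted p = 0.0913), 2 (0.052) and 3 (0.058) or of KO CD62Llo replicates 1 (0.0634) and 2 (0.0856). Quantile normalization (0.088), median centring (0.0622) and leaving out the 3 libraries highest in myeloid markers (0.204, the highest over the alternatives, with 0.0137 the lowest) ended it as well. In the mm10 annotation Itgav overlaps Gm13684 and Dnmt3l-ps1 on the opposite strand, and the sources used here do not say that reads were counted by strand.

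Tgfbr1 (chr4:47353305-47414924, plus strand), the signalling type I receptor gene, was higher in CD62Llo. It was at 14.6 and 15.2 FPKM in HET CD62Lhi and at 21.6, 23.2 and 29.4 in HET CD62Llo. It was at 15.9, 14.6 and 15.9 in KO CD62Lhi and at 23.7, 20.6 and 23.1 in KO CD62Llo. No CD62Llo library overlapped a CD62Lhi library, and within each fraction the genotypes overlapped. The log2 rise was 0.68 in HET (SE 0.12, limma adjusted p = 0.00207, 0.00143 to 0.0263 over the alternatives) and 0.51 in KO (SE 0.10, adjusted p = 0.00897). Without the 3 libraries highest in myeloid markers, which leaves 1 KO CD62Llo library, the KO rise was 0.55 with an adjusted p of 0.0819, the highest over the alternatives, with 0.00751 the lowest.

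Tgfbr2 (chr9:116087695-116175363, minus strand), the ligand-binding type II receptor gene, was more abundant per length than Tgfbr1 in every library and fell in HET CD62Llo. It was at 60.5 FPKM in both HET CD62Lhi libraries and at 54.5, 52 and 48.7 in HET CD62Llo, with no overlap. In KO it was at 62.6, 62.8 and 60.5 in CD62Lhi and at 57.3, 63.3 and 56.6 in CD62Llo, which overlapped because of KO CD62Llo replicate 2. The log2 change was -0.22 in HET (SE 0.06, limma adjusted p = 0.0277) and -0.07 in KO (95% interval -0.20 to 0.06, adjusted p = 0.465). The HET call was lost without any 1 of HET CD62Lhi replicates 1 (adjusted p = 0.124) and 2 (0.119) or of HET CD62Llo replicates 2 (0.0598) and 3 (0.0765), and in a fit of the 2 groups alone (0.0682), with 0.00131 the lowest over the alternatives.

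Smad3 (chr9:63646767-63757994, minus strand), the receptor-activated Smad most tied to TGF-beta, passed in no comparison. It was at 15.5 and 13.2 FPKM in HET CD62Lhi and at 17.3, 17 and 19.7 in HET CD62Llo, which did not overlap. In KO it was at 15.6, 16.8 and 14.1 in CD62Lhi and at 13.9, 17.4 and 15.8 in CD62Llo, which overlapped. The log2 change was 0.31 in HET (95% interval 0.06 to 0.56, limma adjusted p = 0.0666) and 0.01 in KO (-0.21 to 0.23, adjusted p = 0.955).

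Smad7 (chr18:75367365-75395934, plus strand), the inhibitory Smad, fell in CD62Llo cells of both genotypes. It was at 33.2 and 31.5 FPKM in HET CD62Lhi and at 17.3, 15 and 14.6 in HET CD62Llo. It was at 34.5, 30.2 and 28.9 in KO CD62Lhi and at 23.6, 19.8 and 23 in KO CD62Llo. The CD62Lhi groups overlapped each other, KO CD62Llo lay below both of them, and HET CD62Llo lay below KO CD62Llo, each without overlap. The ratio of group means was 0.483 in HET and 0.711 in KO. The log2 fall was -1.01 in HET (SE 0.10, limma adjusted p = 0.000119, 9.42e-05 to 0.00288 over the alternatives) and -0.48 in KO (SE 0.09, adjusted p = 0.00715). Without the 3 libraries highest in myeloid markers the KO change was -0.42 with an adjusted p of 0.0895, the highest over the alternatives, with 0.00266 the lowest. B cell and CD8 T and NK cell sums were lower in CD62Llo too, as given above, and their part in the changes of Smad7, Ski and Tgfbr2 was not tested.

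Of the co-repressor genes Ski fell in HET CD62Llo, and Skil passed in neither genotype. Ski (chr4:155154075-155222535, minus strand) was at 58.7 and 58.1 FPKM in HET CD62Lhi and at 48.3, 46.4 and 43.8 in HET CD62Llo. In KO it was at 59.9, 56.3 and 51.3 in CD62Lhi and at 48.9, 50.9 and 51.2 in CD62Llo, where the closest values of the fractions were 51.3 and 51.2. The log2 change was -0.33 in HET (SE 0.07, limma adjusted p = 0.00549, 0.000719 to 0.0451 over the alternatives) and -0.14 in KO (95% interval -0.28 to -0.01, adjusted p = 0.15), which was called under median centring alone (-0.22, adjusted p = 0.0219). Skil (chr3:31095058-31122923, plus strand) was at 25.7 and 24.7 in HET CD62Lhi and at 20.8, 20.7 and 23.5 in HET CD62Llo. It was at 27.2, 24.6 and 26 in KO CD62Lhi and at 21.8, 21.4 and 24.6 in KO CD62Llo, so both pairs of fractions were separate but touched in KO. The log2 change was -0.21 in HET (limma adjusted p = 0.0729) and -0.19 in KO (adjusted p = 0.1). It was called without HET CD62Llo replicate 3 (-0.27, adjusted p = 0.035) and without KO CD62Llo replicate 3 (-0.25, adjusted p = 0.0393), under median centring in both genotypes (0.0236 and 0.042) and under quantile normalization in HET (0.0305).

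**Figure D3:**
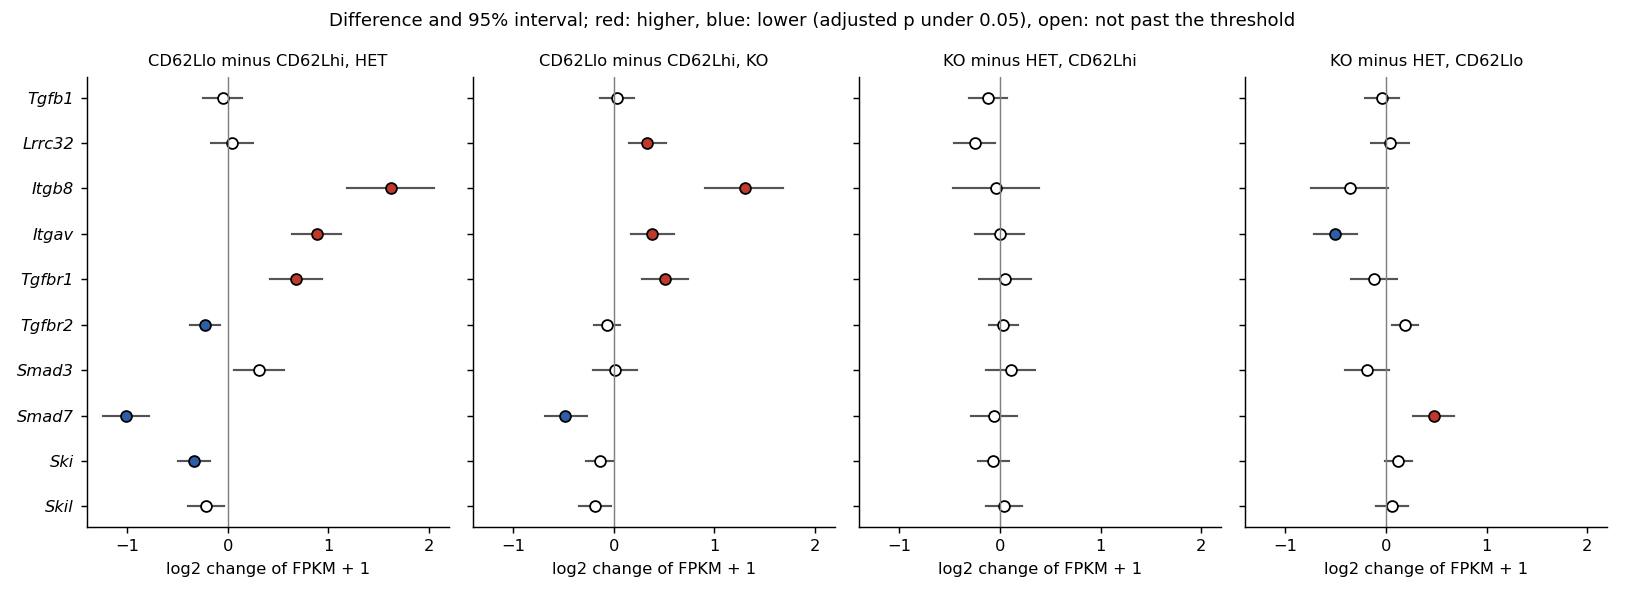
Difference in log2(FPKM + 1) of each of the 10 genes in the 4 comparisons, with 95% intervals. Filled points passed the threshold (red higher, blue lower). The largest differences are the Itgb8 rises of 1.62 and 1.30 in the fraction panels, no gene passed between the CD62Lhi groups, and Itgav and Smad7 passed in opposite directions between the CD62Llo groups.

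In CD62Lhi cells none of the 10 genes was called between KO and HET, and neither was any other gene (0% of 11431, limma, Benjamini-Hochberg). At an unadjusted p under 0.05 there were 328 of the 11431 genes, a share smaller than 0.05, and Lrrc32 was the 1 member among them. Lrrc32 averaged 75 ± 2.04 FPKM (n = 2) in HET and 62.7 ± 0.796 (n = 3) in KO, with no overlap, for a log2 difference of -0.25 (95% interval -0.46 to -0.05, unadjusted p = 0.0217, adjusted p = 1). The genotypes were separate for 2 of the 10 genes, Lrrc32 and Tgfbr2, against 22.2% of all genes. For Itgb8 the difference was -0.04 (95% interval -0.47 to 0.39) and for Itgav it rounded to 0 (-0.25 to 0.24). The intervals of Smad7 (-0.29 to 0.17) and Tgfbr1 (-0.21 to 0.31) also spanned 0.

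In CD62Llo cells Itgav was lower and Smad7 higher in KO than in HET, 2 of the 10 genes, where 4.6% of all genes were called, 1.36% higher and 3.25% lower. The share of calls that were higher was 29.5%, and 43.3% under quantile normalization and 44.6% under median centring. Itgav averaged 11 ± 1.8 FPKM (n = 3) in HET and 7.39 ± 0.29 (n = 3) in KO, and the highest KO library, at 7.68, was below the lowest HET library, at 9.38. The log2 difference was -0.51 (SE 0.10, limma adjusted p = 0.0202). Smad7 averaged 15.6 ± 1.46 in HET and 22.2 ± 2.08 in KO, and the lowest KO library, at 19.8, was above the highest HET library, at 17.3. Its difference was 0.48 (SE 0.09, adjusted p = 0.0205). Both genes therefore differed between the CD62Llo groups in the direction that placed KO nearer to the CD62Lhi levels. HET CD62Llo and KO CD62Llo enter this comparison and also the fraction comparisons above, so the 3 are not independent.

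Both calls were lost without single libraries. That of Itgav was lost without any 1 of HET CD62Llo replicate 3 (adjusted p = 0.0538), KO CD62Llo replicate 1 (0.0749) and KO CD62Llo replicate 3 (0.0681), and in a fit of the 2 groups alone (limma adjusted p = 0.109, the highest over the alternatives, with 0.0112 the lowest). That of Smad7 was lost without any 1 of HET CD62Llo replicates 2 (0.084) and 3 (0.0696) or of KO CD62Llo replicates 1 (0.0883) and 3 (0.0695), and in a fit of the 2 groups alone (0.0931, the highest, with 0.00838 the lowest). Without the 3 libraries highest in myeloid markers the differences grew to -0.66 for Itgav (adjusted p = 0.0748) and 0.61 for Smad7 (adjusted p = 0.0642). The part of the sorted mix of cells in these differences was not tested.

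The other 8 genes were not called between the CD62Llo groups. Itgb8 averaged 7.01 ± 2.2 FPKM in HET and 5.1 ± 0.655 in KO with overlap between 5.14 and 5.56 (log2 difference -0.36, 95% interval -0.75 to 0.02, limma adjusted p = 0.288). Tgfbr2 averaged 51.7 ± 2.9 and 59.1 ± 3.72 with no overlap (0.19, 95% interval 0.06 to 0.32, adjusted p = 0.109), and was called under quantile normalization (0.22, adjusted p = 0.036) and median centring (0.23, adjusted p = 0.0249). Ski averaged 46.2 ± 2.26 and 50.3 ± 1.25, also with no overlap (0.12, 95% interval -0.01 to 0.26, adjusted p = 0.314). The genotypes were separate for 4 of the 10 genes, against 20.2% of all genes. Tgfb1 (95% interval -0.21 to 0.13), Lrrc32 (-0.15 to 0.23), Tgfbr1 (-0.35 to 0.11), Smad3 (-0.41 to 0.03) and Skil (-0.10 to 0.22) overlapped between the genotypes.

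Whether the fraction difference itself depended on genotype was tested as an interaction. None of the 10 genes was called (0.00875% of all genes were, limma, Benjamini-Hochberg). At an unadjusted p under 0.05 there were 868 of the 11431 genes, among them Smad7, Itgav and Lrrc32. The interaction was 0.53 for Smad7 (SE 0.14, unadjusted p = 0.00346, adjusted p = 0.314, 0.147 to 0.793 over the alternatives). It was -0.50 for Itgav (SE 0.15, unadjusted p = 0.00665, adjusted p = 0.39, 0.149 to 0.845 over the alternatives). The absolute fraction change was smaller in KO for 9 of the 10 genes, all but Lrrc32. It was also smaller for 69.7% of all tested genes and for 88.9% of the 3348 genes called in either genotype, so the share among the 10 is close to that of called genes.

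Ratios taken within a library do not depend on its scaling, and 5 pairs were formed after their values had been seen, so no test is given. The ratio of Itgb8 to Itgav, the partner chains of the integrin, was 0.26 and 0.31 in HET CD62Lhi, 0.548 to 0.729 in HET CD62Llo, 0.243 to 0.321 in KO CD62Lhi and 0.566 to 0.759 in KO CD62Llo. The CD62Llo ranges of the genotypes overlapped, whereas those of Itgav alone did not. The ratio of Tgfbr1 to Tgfbr2 was 0.241 and 0.252 in HET CD62Lhi, 0.396 to 0.603 in HET CD62Llo, 0.232 to 0.263 in KO CD62Lhi and 0.325 to 0.415 in KO CD62Llo. Tgfbr2 was thus the more abundant receptor mRNA per length in every library, and by less in CD62Llo. The ratio of Smad7 to Smad3 was 2.15 and 2.38 in HET CD62Lhi, 1.79 to 2.21 in KO CD62Lhi, 1.14 to 1.71 in KO CD62Llo and 0.743 to 0.999 in HET CD62Llo. Smad7 was above Smad3 in every library but those of HET CD62Llo. The ratio of Lrrc32 to Tgfb1, carrier to ligand, ran from 0.896 in KO CD62Lhi to 1.31 in HET CD62Llo, and that of Skil to Ski from 0.421 in KO CD62Llo to 0.536 in HET CD62Llo, with overlap between fractions except for Lrrc32 to Tgfb1 in KO (0.896 to 1.01 and 1.06 to 1.29).

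**Figure D4:**
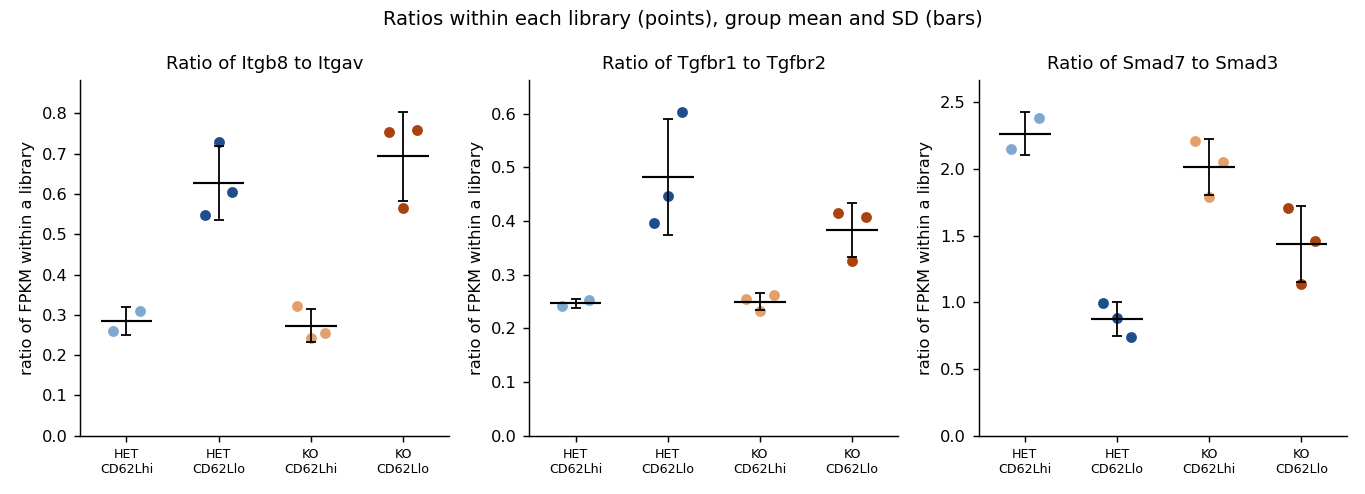
Ratio of FPKM within each library (points) for Itgb8 to Itgav, Tgfbr1 to Tgfbr2 and Smad7 to Smad3, with group mean and SD (bars). The integrin and receptor ratios are higher in all CD62Llo than in all CD62Lhi libraries, and the Smad7 to Smad3 ratio is lowest in HET CD62Llo, at 0.743 to 0.999.

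The authors' deposited table of values pooled by group gives the same order of the 4 groups for Itgb8, Smad7, Itgav, Tgfbr2 and Ski as the means of the single libraries. The order differs for Tgfb1, Lrrc32, Tgfbr1, Smad3 and Skil. For Lrrc32 the pooled values are 90.34 in HET CD62Lhi and 88.88 in HET CD62Llo, where the means were 75 and 77.2. In the authors' deposited table Itgb8 is at 2.06 FPKM in HET CD62Lhi, 8.59 in HET CD62Llo, 1.96 in KO CD62Lhi and 6.45 in KO CD62Llo. For Smad7 the authors' deposited table has 42.9, 18.9, 41.3 and 27.8 in the same order, and for Itgav 8.013, 14.35, 7.669 and 9.924. How the libraries were pooled is not stated, so these values are set beside the others only for their order.

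Genes whose profiles over the 11 libraries lay closest to each called gene were found among 7739 genes, by the root-mean-square difference of centred log2(FPKM + 1). These candidates averaged at least 5 FPKM over the 11 libraries, a cut that Itgb8 did not reach. For Itgb8 they were Nsmf (0.163), Tbc1d4 (0.165) and Ptpn13 (0.189), where the profile of Itgb8 itself has a root-mean-square of 0.763. For Smad7 they were Vps37b (0.06), Klf7 (0.06) and Pag1 (0.09), against its own 0.418. For Itgav they were Ptplad1 (0.081), Ide (0.083) and Aebp2 (0.084), against 0.381, and for Tgfbr1 Ivns1abp (0.094), Nfat5 (0.095) and Rabgap1l (0.104), against 0.317. The profiles of Ski (0.139), Tgfbr2 (0.115) and Lrrc32 (0.161) are flatter, and among their closest were Tpm3 (0.039) for Ski, Ankrd13a (0.043) for Tgfbr2 and Cycs (0.079) for Lrrc32. None of the 10 is among the 3 closest of any of these 7, where Itgb8 could not appear because it was not a candidate.

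Beyond the 10, a list of 78 pathway genes was compared in the same fit, of which 77 were in the files and 51 could be tested. In HET 20 rose and 10 fell in CD62Llo, and in KO 20 rose and 3 fell, beside the shares of all genes given above. The 51 had a median log2 change of 0.13 in HET and 0.05 in KO. Among other ligand and latency genes 2 of 3 tested rose in both genotypes. Bmp7, a bone morphogenetic protein of the same superfamily, averaged 3.89 ± 1.72 FPKM in HET CD62Lhi and 15.8 ± 6.39 in HET CD62Llo (log2 1.76, limma adjusted p = 0.00463, lost at 0.0508 without HET CD62Lhi replicate 2), and 2.96 ± 0.6 and 11.5 ± 3.67 in KO (1.63, adjusted p = 0.00685). Furin, the protease that cleaves the TGF-beta precursor, averaged 17.8 ± 0.232 and 29.6 ± 4.07 in HET (0.69, adjusted p = 0.00134). In KO it averaged 15.8 ± 1 and 20.6 ± 1.89 (0.36, adjusted p = 0.0329), a call lost without KO CD62Lhi replicate 1 (0.0776), 2 (0.116) or 3 (0.0544) or without KO CD62Llo replicate 1 (0.0638) or 3 (0.0883), under quantile normalization (0.0984) or median centring (0.105) and with no filter (0.0547). The other 12 genes of this list of 15, which includes the other TGF-beta isoforms and the latent TGF-beta binding proteins, did not enter the test.

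Integrin β chains that pair with αv moved in different directions. Itgb5 rose from 0.519 ± 0.333 to 2.78 ± 0.268 FPKM in HET (log2 1.33, limma adjusted p = 0.000292) and from 0.321 ± 0.0135 to 2.89 ± 0.617 in KO (1.55, adjusted p = 0.000164). Itgb1, which also pairs with many other α chains, rose from 32.7 ± 3.64 to 92.1 ± 3.09 in HET (1.47, adjusted p = 8.31e-05) and from 29.4 ± 6.44 to 56.9 ± 2.08 in KO (0.95, adjusted p = 0.00105). Itgb3 fell from 15.2 ± 0.115 to 7.28 ± 0.4 in HET (-0.97, adjusted p = 0.00235) and from 16.3 ± 1.26 to 8.38 ± 2.36 in KO (-0.91, adjusted p = 0.00349). Both Itgb8 and Itgb5 were under 2 FPKM in every CD62Lhi library, whereas Itgb1 was at 25.3 or more. Of the 7 tested activator and co-receptor genes 5 rose and 1 fell in HET and 4 rose and 1 fell in KO. Among all tested genes 18.8% rose and 8.88% fell in HET, and 11.9% and 4.26% in KO. Mmp9, a matrix protease able to release latent TGF-beta, rose from 0.123 ± 0.0027 to 3.22 ± 1.3 in HET (1.86, adjusted p = 0.00148), and from 0.0993 ± 0.0254 to 1.59 ± 0.816 in KO (1.19, adjusted p = 0.0146). Its KO call was lost without KO CD62Llo replicate 2 (0.0534), and no other alternative ended it. Mmp9 was at 1.8, 3.51 and 4.35 FPKM in HET CD62Llo and at 0.76, 1.62 and 2.39 in KO CD62Llo, with replicate 3, the lowest of each group in summed myeloid markers (58.4 and 39), at the highest level. The part of other cells in its rise was not tested. Mmp14, a membrane protease, averaged 1.29 ± 0.788 and 5.4 ± 2.8 in HET (1.41, adjusted p = 0.0237), a call lost without HET CD62Lhi replicate 1 (0.183) or HET CD62Llo replicate 2 (0.0675) or 3 (0.0674), in a fit of the 2 groups alone (0.0934) and under quantile normalization (0.0509).

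Of the 4 other receptor genes tested, the type II receptor genes Acvr2a and Bmpr2 rose in both genotypes and the type I receptor genes Acvr1b and Acvrl1 fell in HET. Acvr2a, for activins, rose from 0.865 ± 0.14 to 2.39 ± 0.292 FPKM in HET (log2 0.86, limma adjusted p = 0.000957) and from 1.15 ± 0.317 to 2.51 ± 0.0764 in KO (0.71, adjusted p = 0.00284). Acvr1b, which signals through the same Smads as Tgfbr1, fell from 13.2 ± 0.774 to 8.24 ± 0.667 in HET (-0.62, adjusted p = 0.00146) and averaged 13.7 ± 1.39 and 11.4 ± 0.978 in KO (-0.24, not called). Bmpr2, for bone morphogenetic proteins, rose from 3.06 ± 0.941 to 5.9 ± 0.866 in KO (0.78, adjusted p = 0.0118) and from 2.65 ± 0.323 to 5.6 ± 0.874 in HET (0.85, adjusted p = 0.00815, lost at 0.069 without HET CD62Lhi replicate 1). Acvrl1 averaged 2.83 ± 0.523 and 1.13 ± 0.388 in HET (-0.86, adjusted p = 0.00928, lost at 0.0866 without HET CD62Lhi replicate 1). Of the other Smad genes 4 were tested and 0 rose. Smad5, a Smad of the bone morphogenetic protein branch, was the 1 called lower in HET (-0.26, adjusted p = 0.0353), a call lost without any 1 of the 5 HET libraries (0.0573 to 0.224). The other 3 were called in no comparison.

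Genes for regulators of the Smads changed in both directions, with 6 of 27 tested rising and 5 falling in HET and 7 rising and 2 falling in KO. The shares of all tested genes were 18.8% higher and 8.88% lower in HET, and 11.9% and 4.26% in KO. Ldlrad4, a membrane protein that keeps Smads from the receptor, rose from 19.4 ± 0.102 to 33 ± 0.177 FPKM in HET (log2 0.74, limma adjusted p = 8.22e-05) and from 19.7 ± 1.44 to 30.2 ± 2.07 in KO (0.59, adjusted p = 0.00031). Tgif1, a Smad co-repressor, rose from 22.3 ± 0.327 to 31.5 ± 2.31 in HET (0.48, adjusted p = 0.00353) and from 18.6 ± 2.12 to 26.5 ± 0.937 in KO (0.49, adjusted p = 0.00318), where Ski and Skil did not rise. Nedd4l, a ubiquitin ligase for Smads, fell from 2.6 ± 0.0703 to 1.22 ± 0.146 in HET (-0.70, adjusted p = 0.000595) and from 2.77 ± 0.294 to 1.91 ± 0.154 in KO (-0.37, adjusted p = 0.0152). The KO call of Nedd4l was lost without KO CD62Lhi replicate 1 (0.0544) or 2 (0.0677). Pmepa1, a Smad-binding inhibitor, rose from 5.93 ± 0.433 to 8.26 ± 0.604 in HET (0.42, adjusted p = 0.00507, lost at 0.0542 without HET CD62Lhi replicate 2) and from 6.31 ± 0.476 to 8.48 ± 0.556 in KO (0.37, adjusted p = 0.00871). Ctdsp2, a phosphatase that acts on Smads, rose from 44.2 ± 2.77 to 60.2 ± 8.31 in KO (0.43, adjusted p = 0.0151), a call lost without KO CD62Lhi replicate 1 (0.0515) or 3 (0.0556). In HET it averaged 48.4 ± 1.02 and 64.4 ± 5.16 (0.40, adjusted p = 0.0217), lost without HET CD62Lhi replicate 1 (0.117) or 2 (0.0837) or HET CD62Llo replicate 1 (0.058) or 2 (0.0558).

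**Figure D5:**
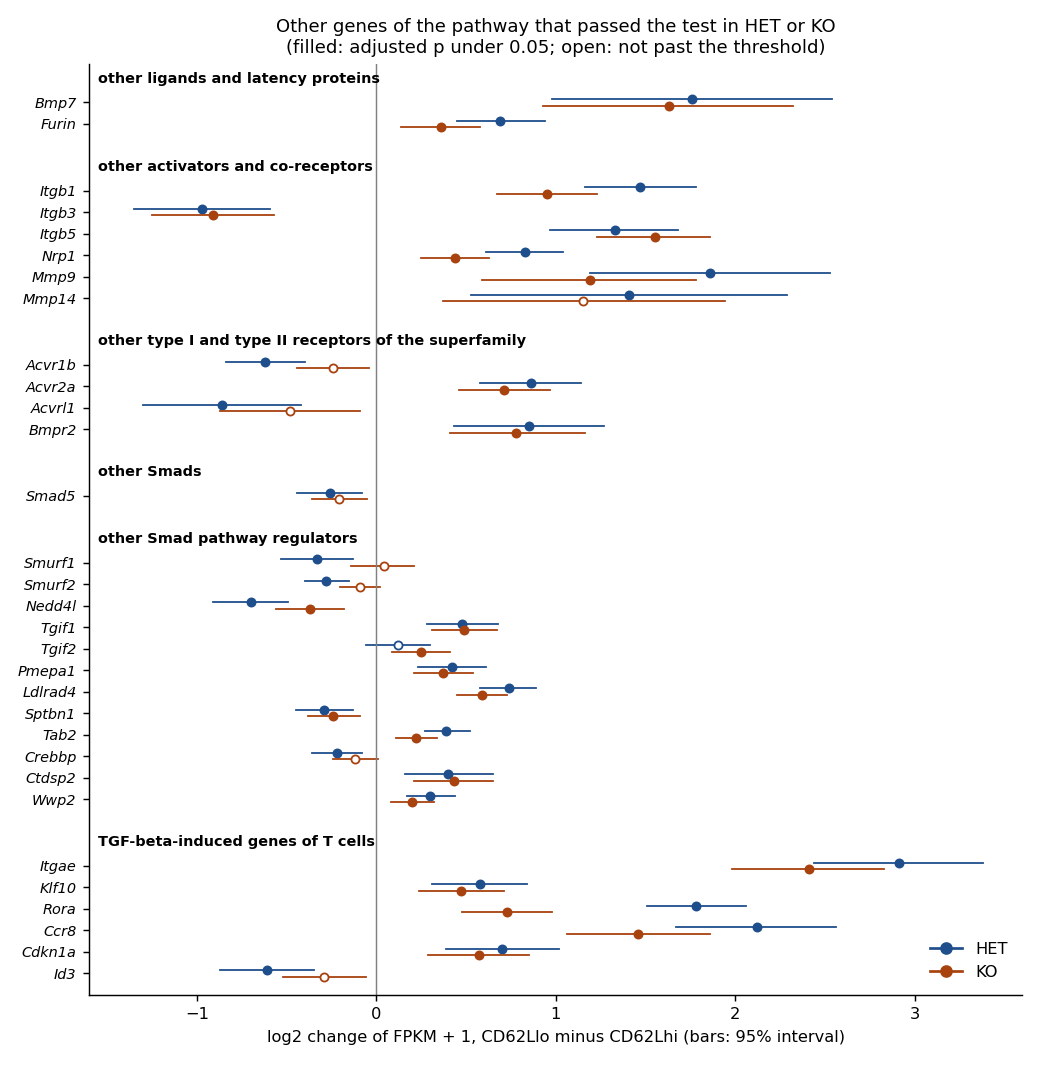
Difference in log2(FPKM + 1) between CD62Llo and CD62Lhi, with 95% intervals, for the pathway genes beyond the 10 that were called in HET (blue) or KO (orange), by list. Filled points passed the threshold. Itgae has the largest change in both genotypes (2.91 and 2.41), and the receptor and regulator lists hold changes in both directions.

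Most tested genes that TGF-beta is known to induce in T cells rose in CD62Llo. Of 10 tested, 7 rose and 2 fell in HET and 7 rose and 1 fell in KO, with a median log2 change of 0.64 and 0.52. Of all tested genes 18.8% were called higher and 8.88% lower in HET, and 11.9% and 4.26% in KO. Those that fell in HET were Smad7 and Id3, an inhibitor of E protein transcription factors, and Smad7 alone fell in KO. Id3, named after its values were seen, averaged 155 ± 1.52 FPKM in HET CD62Lhi and 102 ± 14.7 in HET CD62Llo (log2 -0.61, limma adjusted p = 0.00387, 0.000812 to 0.0314 over the alternatives), and 132 ± 11.8 and 107 ± 8.16 in KO (adjusted p = 0.0921). Itgae, which encodes the αE chain of CD103, rose from 6.3 ± 1.73 to 53.6 ± 8.05 FPKM in HET (log2 2.91, limma adjusted p = 2.11e-05) and from 5.37 ± 1.35 to 32.3 ± 3.46 in KO (2.41, adjusted p = 7.95e-05). Ccr8, a chemokine receptor of tissue Tregs, rose from 4.7 ± 0.00957 to 24.4 ± 6.64 in HET (2.12, adjusted p = 7.76e-05) and from 3.78 ± 0.42 to 12.2 ± 1.3 in KO (1.46, adjusted p = 0.000647). Rora, a nuclear receptor, rose from 2.53 ± 0.34 to 11.2 ± 1.3 in HET (1.78, adjusted p = 1.61e-05) and from 3.01 ± 0.348 to 5.66 ± 0.7 in KO (0.73, adjusted p = 0.0021). Several of these genes also respond to other signals of activated T cells, so the list does not measure TGF-beta alone. Ldlrad4 and Pmepa1 stand in this list and also among the regulators, and Smad7 and Skil stand in it and also among the 10 genes. Of the KO rises and falls named here, those of Itgb3, Itgb5, Mmp9, Ldlrad4, Itgae and Ccr8 held without the 3 libraries highest in myeloid markers. Those of Bmp7, Furin, Itgb1, Acvr2a, Bmpr2, Tgif1, Nedd4l, Pmepa1, Ctdsp2 and Rora did not (adjusted p 0.0605 to 0.205), in a fit with 1 KO CD62Llo library.

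Between KO and HET the 51 other pathway genes gave 0 calls in CD62Lhi, and 3 higher and 5 lower in CD62Llo. In CD62Llo 1.36% of all tested genes were called higher and 3.25% lower. Rora was lower in KO CD62Llo (log2 -0.87, limma adjusted p = 0.0041, 0.0042 to 0.0336 over the alternatives), the 1 of these calls that held in all 15 alternatives. Itgb1 (-0.69, adjusted p = 0.017), Furin (-0.50, adjusted p = 0.0217), Nrp1, a co-receptor that binds latent TGF-beta (-0.46, adjusted p = 0.018), and Ccr8 (-0.92, adjusted p = 0.0212) were lower too. Acvr1b (0.43, adjusted p = 0.028), Smurf2, a ubiquitin ligase that acts with Smad7 (0.25, adjusted p = 0.0252), and Nedd4l (0.39, adjusted p = 0.0325) were higher. Each of these 7 was lost without at least 1 single library: KO CD62Llo replicate 1 for all 7 (0.0567 to 0.111), HET CD62Llo replicate 2 for all but Furin (0.0612 to 0.113), HET CD62Llo replicate 3 for all but Furin and Smurf2 (0.0571 to 0.091), HET CD62Llo replicate 1 for Smurf2 (0.055), KO CD62Llo replicate 2 for Furin, Acvr1b and Nedd4l (0.0514 to 0.0686) and KO CD62Llo replicate 3 for all but Furin and Itgb1 (0.0501 to 0.0811). No gene of the list was called for the interaction (limma, Benjamini-Hochberg).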

How the data were processed

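RNA was poly(A)-selected and sequenced on Illumina libraries, per the labels' protocols. The submitters' processing notes name CASAVA 1.8.2, FastQC, TopHat, Cufflinks 2.1.1 and build mm10, without their settings. The authors deposited 1 FPKM per gene entry and library, with no read counts used here, and an FPKM table pooled by group. Between 12.1% and 30.8% of the FPKM of a library lay above the upper bound deposited with them, so those bounds were not used. Entries of the 250 symbols with more than 1 entry were summed. Genes that reached 1 FPKM in 2 or more of 11 libraries were tested on log2(FPKM + 1) with limma 3.58.1 in R 4.3.3, as 1 mean per group with a trended variance over all 11 libraries, two-sided, with Benjamini-Hochberg adjustment over the 11431 genes and a threshold of 0.05. The scripts were tested on simulated data.

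The members, the gene lists and the tests were chosen with earlier results of these data known. Of the other pathway lists up to 4 called genes a comparison were named, those with the largest absolute change, while the plot of pathway changes shows all that were called. Marker lists were of T and Treg cells, the CD62L fractions, platelets, myeloid and dendritic cells, B cells, CD8 T and NK cells, stroma and endothelium, and red cells. Alternatives were pseudocounts of 0.1 and 0.5, no filter, quantile normalization, median centring, no variance trend, a fit of the 2 groups alone, the replicate number as a block and leaving out each library. Leaving out the 3 CD62Llo libraries highest in myeloid markers was added after seeing the data. Same-numbered HET and KO CD62Llo libraries deviated together (r = 0.165, 0.153 and 0.148 across genes). The sample titles give a replicate number only and state no pairing, and the main fit used none. No 2 libraries held identical values. A few genes are not reported here.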

Additional observations from a re-analysis of the deposited data

Results flagged for a closer look

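HET CD62Lhi replicate 3, which enters no comparison, lists Itgav at 109 FPKM and Ski at 142 FPKM, where the highest of the 11 other libraries are at 12.9 and 59.9. It lists the other 8 genes at 0, and 589 of its 23846 entries are above 0. Both values were flagged because they exceed those of the 11 libraries used and come from a library outside the comparisons. The submitters set that library aside for low read counts, and the cause of its values was not tested.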

How the results depend on the processing

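No change of the 10 genes reversed direction in a way that altered a call. The 13 calls among their 50 results were kept in 156 of 189 alternative values and lost in 33, and results without a call gained one in 10 of 581. The calls of Itgb8, Itgav, Tgfbr1, Smad7 and Ski in HET and of Itgb8 in KO held in all of them. Absolute depth is not known, so no counting interval can be given, and with 2 or 3 libraries a group a single library decided many of the other calls.

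Without each library in turn, the genes called between the HET fractions numbered 1916 to 3137 of all (3163 with all libraries), 5 to 6 of the 10 and 22 to 29 of the other pathway genes (30). Between the KO fractions they were 1187 to 1974 of all (1852), 3 to 5 of the 10 (5) and 15 to 22 of the others (23). Between KO and HET they were 0 to 5 of all in CD62Lhi, and in CD62Llo 182 to 610 of all (526), 0 to 2 of the 10 (2) and 1 to 8 of the others (8). For the interaction they were 1 to 5 of all (1).

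Without the 3 libraries highest in myeloid markers the KO fractions gave 456 calls of all genes, 2 of the 10 and 7 of the others. KO against HET then gave 1 of all in CD62Lhi and, in CD62Llo, 150 of all, 0 of the 10 and 2 of the others, and the interaction 7 of all. That fit leaves KO CD62Llo with 1 library, which is assumed to vary like the other groups. The fit of the 2 groups alone gave 5 calls in CD62Lhi and, in CD62Llo, 109 of all, 0 of the 10 and 3 of the others. The interaction had 4 calls with no filter and 3 without a variance trend. The cause of these differences was not tested beyond the smaller number of libraries.

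With the replicate number as a block, 3636 genes were called between the HET fractions, 2287 between the KO fractions and 755 between the CD62Llo groups. Of the 10 genes the block changed the calls of Skil alone, which passed in HET (-0.25, limma adjusted p = 0.0169) and in KO (-0.19, adjusted p = 0.0405). Between the fractions the same-numbered libraries had r of 0.135 and 0.073 in HET and of 0.131, 0.068 and 0.178 in KO. For each CD62Lhi library but KO replicate 2, the CD62Llo library of its genotype with the highest r bore the same number. Whether the numbers pair the fractions is not known.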
